A study of Arabidopsis thaliana with 18 samples.

Results

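The genes described here were higher in arp6-10 than in wild-type Arabidopsis seedlings at every temperature point of the series. They were chosen from measured values. On a log2(value + 16) scale, quantile normalized over 18 arrays, the arp6-10 mean had to exceed the Col-0 mean by at least 0.8 at 12 °C, 2 h and 24 h. No array of one genotype could overlap the other at any point, and the mean over the arrays used had to reach 6. The arrays labelled arp6-10 12 °C replicate 3 and arp6-10 24 h replicate 2 were left out of this choice, so 16 arrays entered it. QQS and NDB4, which also met the criteria, were set aside. This gave 67 members of the 22746 probe sets on the array that are not controls, and all 67 were among the 15922 probe sets bright enough to be tested. A probe set is a group of short probes for 1 transcript or a few. Of the members, 40 are paired with 1 gene, 4 with several genes and 23 are unnamed here. The unit counted throughout is the probe set.

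The samples were whole seedlings, all given the age of 8 days, of wild type (accession Col-0) and of arp6-10, and each was measured on 1 Affymetrix array. Seeds had spent 48 h at 4 °C before growth at 20 °C, and seedlings were moved at 5 days to 12 °C for 3 days in continuous light. Both genotypes were taken in the cool (12 °C) and again once they had spent 2 h or 24 h at 27 °C. Every Col-0 group has 2 arrays and every arp6-10 group has 4. arp6-10 is 1 mutant allele, no line with the gene put back is among the groups, and no group stayed at 12 °C for the 2 h or 24 h, so warmth and elapsed time cannot be told apart. Whether replicate arrays stand for separate plates is not in the labels, so p-values measure only the spread between these arrays, and part of that may be technical.

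ARP6 is an actin-related protein and a subunit of SWR1, a chromatin remodelling complex that exchanges histone H2A for the variant H2A.Z in nucleosomes. H2A.Z lies mainly around the start of genes, and within the bodies of genes that respond to the environment. In Arabidopsis, loss of ARP6 lowers H2A.Z in chromatin and gives early flowering.

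The arrays differed in ways other than their genotype. An axis was drawn through all tested probe sets, with 0 at the arp6-10 arrays of 12 °C and 1 at those of 24 h, leaving out the pair in question. The array labelled arp6-10 12 °C replicate 3 lay at 0.96 and the one labelled arp6-10 24 h replicate 2 at -0.04, opposite to their labels. The others fell between 0.08 and 0.14 at 12 °C, and between 0.88 and 0.93 at 24 h. Temperature tests below are given with all 18 arrays as labelled and with the 16. Signals of the hybridization controls were 3497 to 5467.7 on the Col-0 arrays (mean 4080) and 2329.4 to 3905.7 on the arp6-10 arrays (mean 2860). They thus tended to move with genotype, though the ranges overlapped. GAPDH 3' to 5' ratios, a measure of RNA integrity, overlapped, at 1.99 to 6.78 and 1.47 to 6.48. The mean over 4 of 8 shoot markers was 12.62 to 13.69 on Col-0 and 12.65 to 13.75 on arp6-10 arrays. Over 2 of 6 root markers it was 10.88 to 12.09 and 10.94 to 12.22, with no measured marker at 0. These ranges pool the 3 points. At 12 °C the root mean was 10.88 to 10.94 on Col-0 arrays and 10.94 to 11.96 on arp6-10 arrays as labelled. At 2 h it was 10.96 to 11.32 and 11.11 to 11.75, and at 24 h 11.79 to 12.09 and 11.49 to 12.22. Before normalization the median log2 value at 12 °C was 6.27 to 6.39 on Col-0 arrays and 6.52 to 6.71 on arp6-10 arrays. This median was 6.34 to 6.41 and 6.49 to 6.53 at 2 h, and 6.55 to 6.65 and 6.59 to 6.72 at 24 h. The part of the hybridization controls, of these medians and of the markers in the results was not tested. In whole seedlings, more cells of a type and more RNA per cell cannot be told apart. The ARP6 transcript is not analysed here, as no probe set is named for it.

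Across the 3 points the members' genotype difference was largest in the cool and smallest after a day of warmth. These differences chose the members and are a description, with no test. The median difference was 1.71 at 12 °C, 1.39 at 2 h and 1.11 at 24 h on the log2 scale, against -0.03, 0.02 and -0.01 over all tested probe sets. Single members ranged from 0.8 to 3.9 at 12 °C, from 0.86 to 3.34 at 2 h and from 0.81 to 4.11 at 24 h. The difference was largest at 12 °C for 41 members, at 2 h for 17 and at 24 h for 9. It was smallest at 24 h for 42, at 2 h for 15 and at 12 °C for 10. Of all tested probe sets, 11.1% met the difference, overlap and mean criteria at 12 °C, 4.32% at 2 h, 1.65% at 24 h and 0.433% at all 3 points. The same rule turned to lower values in arp6-10 found 57 probe sets.

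**Figure D1:**
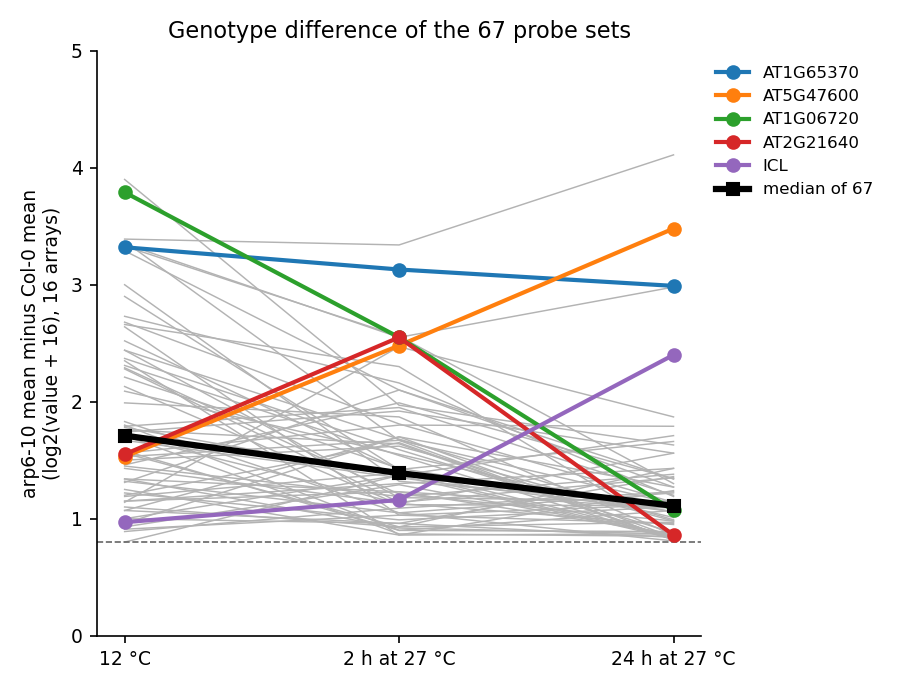
The y axis is the arp6-10 mean minus the Col-0 mean on the log2(value + 16) scale from 16 arrays, and the x axis the 3 points. Grey lines are the 67 members, the black squares their median (1.71, 1.39 and 1.11), the dashed line the minimum of 0.8, and coloured lines 5 members: AT1G65370 stays near 3, AT1G06720 drops from 3.79 to 1.07, AT2G21640 peaks at 2 h, and AT5G47600 and ICL climb.

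In 13 members the Col-0 mean was under 5 in at least 1 group (18 groups in all), close to the floor of 4 that the scale allows, and such a level is not shown to be above background. No arp6-10 group of a member was that low. The folds of these members are rough, and on this scale the fold of a dim gene is understated. The clearest case is the unnamed probe set 264066_at. Its Col-0 arrays read 4.37 and 4.54 at 12 °C, 4.66 and 4.1 at 2 h, and 4.12 and 4.13 at 24 h. Its 12 arp6-10 arrays ran from 7.39 to 8.51. Its difference of 4.11 at 24 h was the largest of any member at that point, and all its Col-0 groups were near the floor.

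The named members are described by what their products do, in groups drawn up after the members were seen. The first holds 8 genes of chromatin, transcription and RNA unwinding, with median differences of 1.82 at 12 °C, 1.61 at 2 h and 0.94 at 24 h. CHR23 encodes an ATPase of the SWI2/SNF2 class, which moves or alters nucleosomes. Col-0 read 4.16 and 4.15 at 12 °C, 4.95 and 4.08 at 2 h, and 6.10 and 5.69 at 24 h. In arp6-10 the arrays used read 6.65, 6.96 and 6.86 at 12 °C, 7.11, 6.92, 6.60 and 6.62 at 2 h, and 6.97, 6.64 and 6.71 at 24 h. The mutant thus sat at one level throughout while Col-0 climbed towards it. The differences were 2.66, 2.30 and 0.88. AT4G08310 encodes a protein with the CHZ domain, known from a yeast chaperone of H2A.Z. Its Col-0 means were 4.5 ± 0.02 at 12 °C, 5.64 ± 0.64 at 2 h and 6.91 ± 0.71 at 24 h (SD, n = 2). Its arp6-10 means were 7.79 ± 0.31 (SD, n = 3), 7.74 ± 0.51 (SD, n = 4) and 8.25 ± 0.25 (SD, n = 3). The shape was like that of CHR23, lowest in cool Col-0 and higher in arp6-10 at each point. Unlike for CHR23, arp6-10 2 h replicate 4 (7.12) lay below Col-0 24 h replicate 1 (7.42).

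AT3G53310, a transcription factor of the B3 class, kept an even difference of 1.56, 1.80 and 1.79. Its Col-0 arrays read 6.10 and 5.95 at 12 °C, 5.78 and 5.78 at 2 h, and 5.08 and 5.41 at 24 h, while the arp6-10 arrays used lay between 6.93 and 7.99. Both genotypes were thus lowest at 24 h and the groups never overlapped. The nuclear RNA helicase gene NIH differed by 2.28, 1.14 and 1.35, and the HMG-box gene 3xHMG-box1, for a protein that binds DNA and chromosomes, by 2.09, 1.55 and 1.01. AT1G71080, an elongation factor of RNA polymerase II, gave 1.53, 1.67 and 0.82, and AT1G26540, with an Agenet domain, 1.34, 0.92 and 0.87. AT2G19930, of the RNA-dependent RNA polymerase family, gave 1.07, 0.96 and 0.84.

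Genes of ribosome assembly, translation and organelle RNA made up 6 members, with medians of 1.88, 1.32 and 0.97. AT1G06720 encodes a GTPase of the BMS1 kind, which in yeast acts in assembly of the small ribosomal subunit. Col-0 read 4.61 and 4.80 at 12 °C, 5.27 and 4.23 at 2 h, and 6.67 and 6.19 at 24 h. In arp6-10 the rule's arrays read 8.41, 8.15 and 8.93 at 12 °C, 7.32, 6.81, 7.55 and 7.52 at 2 h, and 7.21, 7.65 and 7.64 at 24 h. Col-0 was higher and the mutant lower at 24 h than at 12 °C, and the difference went from 3.79 to 1.07, the widest range among the members. AT2G40430 (SMO4), which acts in ribosome biogenesis, differed by 2.31, 1.54 and 0.82. CFM3A, whose CRM domain takes part in intron splicing in organelles, differed by 2.52, 1.42 and 0.85. In the other 3 the difference varied little between points. AT5G66470, a GTPase like the bacterial ribosome factor Era, gave 1.45, 1.19 and 1.38, the pentatricopeptide repeat gene AT1G08610 gave 1.15, 1.23 and 0.87, and AT1G17960, a threonyl-tRNA synthetase, 0.91, 1.03 and 1.12.

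Chaperone, protein turnover and repeat proteins were 5 members. AT5G47600, of the HSP20-like chaperone family, had a difference that widened with warmth, from 1.53 through 2.48 to 3.48. Its Col-0 arrays read 6.01 and 5.77 at 12 °C, 6.14 and 5.29 at 2 h, and 6.59 and 6.74 at 24 h. In the mutant they read 7.74, 7.32 and 7.20, then 8.62, 8.39, 8.22 and 7.53, then 10.07, 10.27 and 10.12. The mutant arrays of 24 h lay above all its others used, while those of 2 h overlapped those of 12 °C. With all 18 arrays as labelled the 24 h values overlap too, since replicate 2 read 6.97. AT1G11660, of the HSP70 family, went the other way, with differences of 2.64, 1.03 and 0.96. The cyclophilin gene AT4G33060 gave 2.13, 1.12 and 1.11 and the ubiquitin protease gene UBP23 2.37, 1.59 and 0.88. AT1G80130, a tetratricopeptide-like repeat protein, gave 1.78, 1.37 and 1.71.

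**Figure D2:**
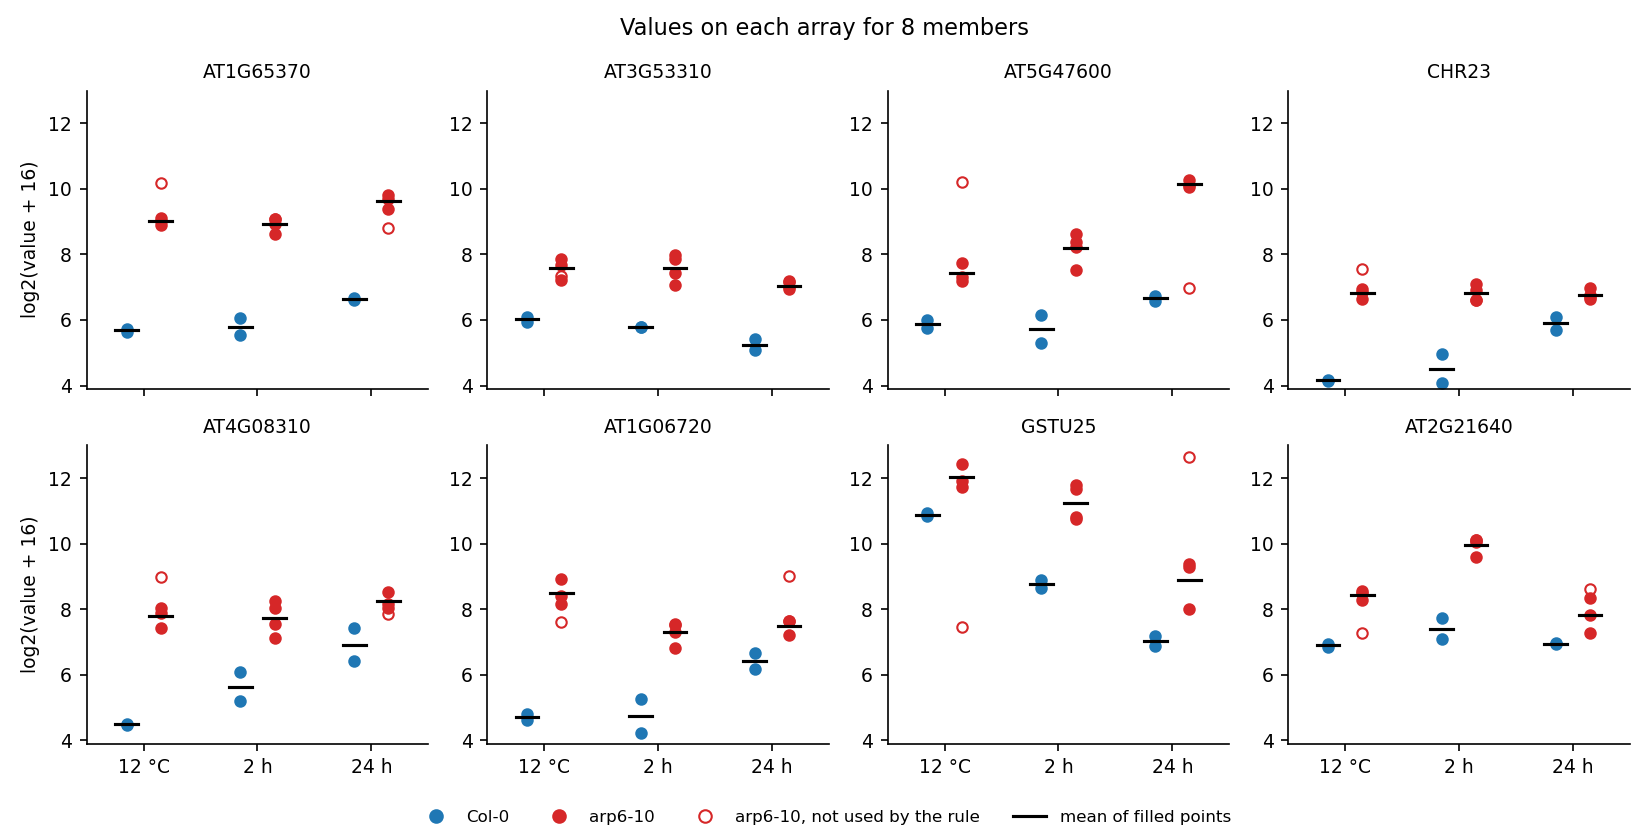
Each panel shows 1 member on every array, with log2(value + 16) on the y axis and the 3 points on the x axis. Blue points are Col-0, red points arp6-10, open red points the 2 arrays the rule did not use, and bars the mean of the filled points. Filled red points lie above the blue ones at every point. CHR23, AT4G08310 and AT1G06720 rise in Col-0 at 24 h, and the open points of AT5G47600 and GSTU25 stand apart from their groups.

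Redox, transport and metabolic genes formed the largest named group, with 10 members and medians of 1.28, 1.35 and 1.18. GSTU25 encodes a glutathione transferase of the tau class, which conjugates glutathione to reactive or foreign compounds. It read 10.94 and 10.83 in Col-0 at 12 °C, 8.65 and 8.90 at 2 h, and 6.87 and 7.18 at 24 h. The arp6-10 arrays used read 11.90, 11.73 and 12.44, then 10.76, 10.80, 11.78 and 11.66, then 8.02, 9.39 and 9.28. Col-0 was lower at each later point, while the arp6-10 arrays of 2 h overlapped those of 12 °C and only those of 24 h lay below both. The differences were 1.14, 2.47 and 1.87. AT2G21640 (UPOX), a mitochondrial protein used as a marker of oxidative stress, was highest in arp6-10 at 2 h. Col-0 read 6.85 and 6.95, then 7.10 and 7.72, then 6.97 and 6.94. In the mutant the values were 8.28, 8.49 and 8.56, then 10.04, 9.60, 10.10 and 10.11, then 7.29, 7.82 and 8.34. The 2 h values of arp6-10 stood clear of every other array, and the differences were 1.55, 2.55 and 0.86. AT5G09570, a small mitochondrial protein of the Cox19-like kind, had the same order, with 1.31, 2.1 and 1.27.

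Among metabolic members, ICL encodes isocitrate lyase, an enzyme of the glyoxylate cycle that lets seedlings build sugar from stored fat. Col-0 read 6.80 and 6.51 at 12 °C, 6.73 and 7.72 at 2 h, and 4.48 and 5.49 at 24 h. Values in arp6-10 were 7.36, 7.51 and 7.98, then 8.18, 8.05, 8.63 and 8.69, then 7.11, 7.24 and 7.82. Col-0 was lowest at 24 h, where the difference reached 2.40 after 0.97 and 1.16. The Col-0 mean at 24 h was 4.99, near the floor, so the difference there is rough. The multidrug and toxin efflux genes AT1G73700 and AT2G04050 differed by 1.74, 1.92 and 1.56, and by 0.80, 1.37 and 0.83. AT1G06550, of the enoyl-CoA hydratase family, gave 3.00, 1.32 and 1.12, and AT1G50450, of the saccharopine dehydrogenase family, 2.35, 0.86 and 0.87. Phosphoglycerate mutase family gene AT1G08940 gave 1.25, 0.86 and 1.24, and the hydrolase gene AT1G52510 1.22, 0.99 and 1.10.

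Signalling, cytoskeletal and interaction-domain genes were 7 members and had the highest medians of the named groups, 2.68, 1.87 and 1.19. AT1G65370, whose product has the TRAF-like MATH domain, had the largest difference that held at all points among named members, at 3.32, 3.13 and 2.99. Col-0 read 5.74 and 5.63, then 5.53 and 6.06, then 6.61 and 6.66. The arp6-10 arrays used read 8.90, 9.11 and 9.01, then 9.08, 8.92, 9.07 and 8.63, then 9.80, 9.68 and 9.39. Nearly 2 log2 units separated the nearest arrays of the genotypes, 8.63 and 6.66. The calmodulin-like gene AT2G41090 differed by 2.73, 2.16 and 1.19. The leucine-rich repeat gene AT5G22320 gave 3.33, 2.56 and 1.3, the actin-binding gene NET4B 2.68, 1.81 and 1.14, and the TPX2 family gene AT2G35880, named after a microtubule protein, 1.99, 1.87 and 0.86. A protein phosphatase 2C gene, AT4G28400, gave 1.56, 0.93 and 0.97, and the ankyrin repeat gene ANK1 1.10, 0.93 and 1.43.

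No role is stated here for 4 named members. AT2G01100 read 4.14 and 4.35 in Col-0 at 12 °C, 6.73 and 5.77 at 2 h, and 7.18 and 6.71 at 24 h. The arp6-10 arrays used lay between 7.29 and 8.38 at all points. Col-0 covered most of the gap, and the differences were 3.37, 1.67 and 1.13. AT5G16030 differed by 1.79, 1.95 and 1.20. AT2G41730 gave 1.07, 1.70 and 1.27, from a probe set whose name marks possible cross-hybridization, and AT5G03390 gave 0.93, 1.29 and 0.86. The 27 members without a single gene had medians of 1.67, 1.35 and 1.07. The probe sets 264513_at (3.35, 2.55 and 2.98) and 264781_at (3.9, 1.97 and 1.63) had large differences beside 264066_at.

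The genotype difference was at least 1 smaller at 24 h than at 12 °C in 22 members, and at least 1 larger in AT5G47600 and ICL. Over all tested probe sets those shares were 7.54% and 4.61%, and as the rule used these differences nothing is read from the comparison. The next values describe how each genotype moved in the members so split, and the split itself sets the order of their medians. In the 22, the Col-0 mean at 24 h minus that at 12 °C had a median of 1.56 (-0.06 to 2.70) and was above 0 in 21. In arp6-10 the same members had a median of -0.17 (-1.60 to 0.70), above 0 in 8. In AT2G41090, 1 of the 22, Col-0 hardly differed (-0.06) and arp6-10 had -1.60. In the other 45 members the medians were 0.18 in Col-0 and -0.03 in arp6-10, above 0 in 28 and 22. The difference varied by less than 0.5 over the 3 points in 19 members.

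Changes with temperature within a genotype were tested with limma, with Benjamini-Hochberg adjustment over all 15922 probe sets and a threshold of 0.05. The rule did not use these contrasts, but it chose the members on the same arrays, so the counts are a description. The share called among all tested probe sets is printed beside them. The share does not remove the effect of the choice. In Col-0 after 24 h, 21 members rose, against 10.3% of all tested probe sets, and 4 fell, against 7.10%. With the 16 arrays 29 rose (16.9% of all) and 9 fell (14.3%). The median change of the members was 0.71, against -0.01 over all. The marker means moved in Col-0 over the same step, from 12.62 and 12.86 to 13.69 and 13.66 for the shoot and from 10.94 and 10.88 to 12.09 and 11.79 for the root, and their part in the result was not tested. Without Col-0 24 h replicate 1 only 5 members rose, and 12 and 13 rose without Col-0 12 °C replicate 1 and 2. The 4 that fell became 0 without Col-0 24 h replicate 1 or Col-0 12 °C replicate 1, 8 without arp6-10 12 °C replicate 3 and 7 without arp6-10 24 h replicate 2. They became 1 or 2 without any of 11 others: the remaining Col-0 arrays, all arp6-10 2 h arrays, arp6-10 12 °C replicates 1 and 2, and arp6-10 24 h replicate 3.

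Of the 8 members of the chromatin and transcription group, 2 rose in Col-0 by 24 h and none fell. Of the 6 of the ribosome and organelle RNA group, 3 rose and 1 fell. In the signalling group 4 of 7 rose, in the chaperone and turnover group 2 of 5, and 2 of the 4 without a stated role. None of those fell. In the redox and metabolic group 1 of 10 rose and 2 fell. Over all tested probe sets 10.3% rose and 7.10% fell. The groups were drawn up after the members were seen, so these counts are a description. By limma, CHR23 rose 3.34-fold (log2 change 1.74 ± 0.30 SE, adjusted p = 0.00136) and AT4G08310 rose 5.34-fold (log2 change 2.42 ± 0.45 SE, adjusted p = 0.00227). AT1G06720 rose 3.31-fold, AT2G40430 1.87-fold and CFM3A 2.75-fold. AT2G01100 rose 6.48-fold (limma adjusted p = 0.000496), and it and CHR23 were called whichever array was left out. In Col-0 at 12 °C both were near the floor, with means of 4.25 and 4.16, and their folds are rough. The same holds for AT4G08310 (4.50), AT1G06720 (4.70) and AT5G22320 (4.84). AT5G16030 rose 8.64-fold (limma adjusted p = 0.0278). NET4B rose 4.27-fold, AT2G35880 3.54-fold, AT5G22320 3.41-fold, AT1G06550 3.01-fold, AT1G11660 2.60-fold, UBP23 2.59-fold and AT4G28400 1.98-fold. The 4 that fell were GSTU25, ICL, AT1G17960 and the unnamed 248625_at. GSTU25 fell 14.5-fold (limma adjusted p = 0.0469, and 1.06e-06 with the 16 arrays) and ICL 3.17-fold (limma adjusted p = 0.00763). AT1G17960 fell 2.43-fold and 248625_at 5.99-fold. In Col-0 at 24 h ICL and AT1G17960 were near the floor, with means of 4.99 and 4.78, and their folds are rough. Among the genes named by rule, leaving out Col-0 24 h replicate 1 ended the calls of AT4G08310, AT1G06720, AT2G40430, AT5G22320, AT5G16030, AT1G11660, GSTU25, ICL and AT1G17960, and that of GSTU25 held in only 4 of 18 such fits.

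Fewer members passed in Col-0 at 2 h. There 6 rose, against 4.37% of all tested probe sets, and 1 fell, against 3.54%. With the 16 arrays 14 rose (11.2% of all) and 7 fell (10.1%). AT2G01100 rose 4.00-fold (limma adjusted p = 0.00854), AT1G50450 2.48-fold and AT1G11660 2.24-fold, beside the unnamed 264781_at, 264799_at and 248988_at. The 1 that fell was 248625_at, by 10.7-fold. No member rose without Col-0 12 °C replicate 1 or Col-0 2 h replicate 1, and none fell without any 1 of the Col-0 12 °C or 2 h arrays. Without arp6-10 24 h replicate 2, 3 fell.

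In arp6-10 few members changed with all arrays as labelled. At 2 h 1 rose, against 1.86% of all tested probe sets, and 2 fell, against 1.84%. The mitochondrial marker AT2G21640 rose 3.50-fold (log2 change 1.81 ± 0.28 SE, limma adjusted p = 0.002) and was called whichever array was left out. AT2G40430 fell 1.80-fold (limma adjusted p = 0.0161) and 248625_at 5.24-fold. Leaving out arp6-10 12 °C replicate 3 gave 3 that rose and 6 that fell, and leaving out arp6-10 24 h replicate 2 gave 3 and 5. The 2 that fell became 1 without any 1 of the Col-0 arrays or of arp6-10 2 h replicates 1 and 2, and 0 without arp6-10 12 °C replicate 2 or 4 or arp6-10 2 h replicate 3 or 4. With the 16 arrays 5 rose (8.40% of all) and 8 fell (8.63%). At 24 h no member and no probe set at all passed in limma with 18 arrays (0% in each direction), while 5 members and 1691 probe sets had an unadjusted p under 0.05. Without arp6-10 24 h replicate 2 alone, 3 rose and 3 fell. With the 16 arrays 10 members rose (14% of all) and 15 fell (14.9%). By limma on those 16, AT5G47600 had a log2 change of 2.73 ± 0.24 SE (adjusted p = 1.62e-07) and AT5G16030 of 2.52 ± 0.26 SE (adjusted p = 1.07e-06). GSTU25 had -3.13, AT2G04050 -2.59, AT1G80130 -1.99, AT2G41730 -1.75 and AT2G41090 -1.60. These calls rest on leaving out the 2 arrays, since with all arrays AT5G47600 had 1.24 (limma adjusted p = 0.485) and GSTU25 -1.06 (limma adjusted p = 0.645). Median changes of the members in arp6-10 were -0.19 at 2 h and -0.02 at 24 h. The 2 h and 24 h changes of a genotype share their 12 °C arrays.

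**Figure D3:**
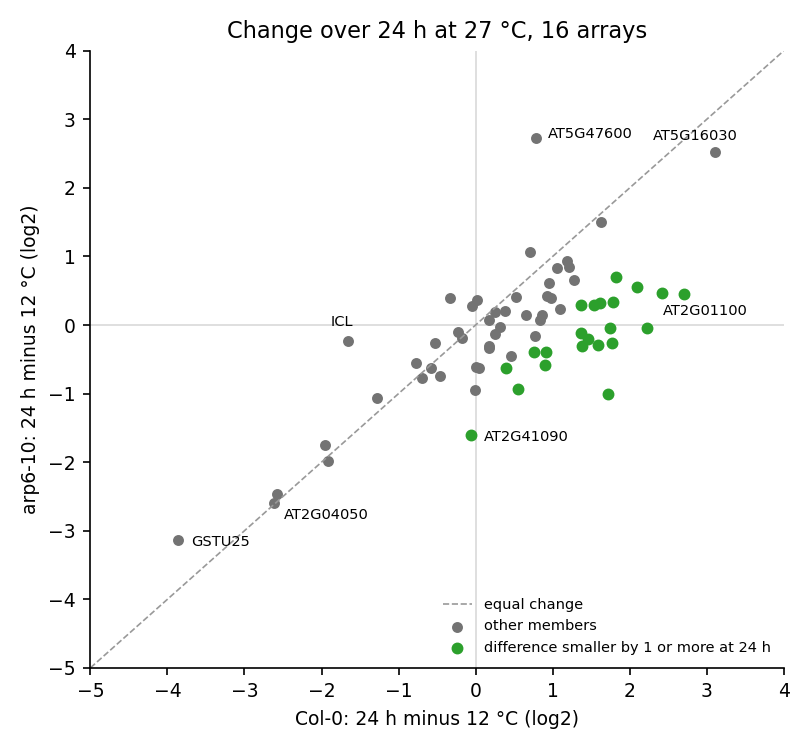
Each point is 1 of the 67 members, with the log2 change from 12 °C to 24 h in Col-0 on the x axis and in arp6-10 on the y axis, from 16 arrays. The 22 green points, whose genotype difference was at least 1 smaller at 24 h, lie right of the dashed line of equal change with a median of 1.56 in Col-0 and -0.17 in arp6-10, and AT5G47600 and ICL lie on the other side of that line.

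The 2 arp6-10 arrays that the rule did not use were compared with the Col-0 arrays, all of which the rule did use. On the array labelled arp6-10 12 °C replicate 3, 56 of the 67 members lay above all 6 Col-0 arrays, against 20.4% of all tested probe sets. On the array labelled arp6-10 24 h replicate 2, 60 did, against 21.6%. Compared only with the Col-0 arrays of their labelled point, 60 members were above on each (40.6% of all probe sets on each). Against the Col-0 arrays of the opposite point, 66 were above on each (36% and 39.8%). Both arrays share their genotype, and the quantile normalization, with the arrays used. All 6 Col-0 arrays and a minimum mean served the rule, so the members' counts are partly set by the choice. The shares over all probe sets carry no such choice, and the counts are a description. The members furthest below the highest Col-0 array on the first were GSTU25 and AT2G04050, both lowest in Col-0 at 24 h. AT2G04050 read 5.47 there against a highest Col-0 value of 7.99, and GSTU25 read 7.47 against 10.94. AT2G41730 read 7.43 against 9.18 and AT1G80130 5.89 against 7.30. On the second, the member furthest below was AT5G16030, highest in Col-0 at 24 h, which read 7.33 against 9.24.

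**Figure D4:**
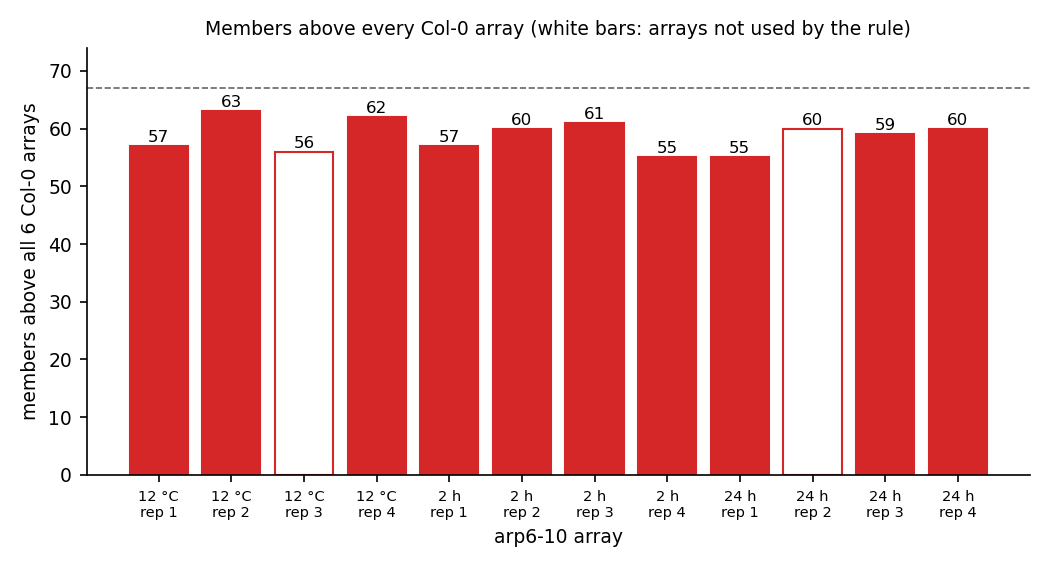
Bars give, for each of the 12 arp6-10 arrays, how many of the 67 members (dashed line) were above all 6 Col-0 arrays of any point. Red bars are arrays the rule used and run from 55 to 63, and the white bars, the 2 arrays it did not use, reach 56 and 60.

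For 35 members every one of the 12 arp6-10 arrays, the 2 unused ones included, lay above every one of the 6 Col-0 arrays, whatever the temperature. Of all tested probe sets 1.53% did so, but 10 of the 12 arrays also served the rule. These 35 include CHR23, AT1G65370, AT3G53310, AT5G47600, AT1G73700, AT2G41090, AT1G06720, AT2G01100, NIH and CFM3A. The gap between the nearest arrays was widest for 264066_at, from 4.66 to 7.39, and narrow for others, such as AT4G28400, from 7.41 to 7.46.

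The border of the gene set is not a natural break. Just inside were AT2G40430 (2.31, 1.54 and 0.82), AT1G71080 (1.53, 1.67 and 0.82) and AT2G04050 (0.80, 1.37 and 0.83). Just outside, with no overlap but a smallest difference under 0.8, were AT2G44760 (2.34, 1.41 and 0.79), AT5G08420 (2.23, 1.46 and 0.78) and AT2G20560 (1.79, 0.96 and 0.78). The smallest difference was under 0.9 in 23 members, and it was 0.7 to 0.8 in 52 probe sets outside the set that met the other criteria.

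Named members lay on all 5 chromosomes. Chromosome 1 held 15 of the 40 (37.5%, against 26.1% of the 8646 named tested genes), chromosome 2 held 9 (22.5% against 14.5%) and chromosome 5 held 9 (22.5% against 23.7%). Chromosome 4 held 4 (10%, against 14.7%) and chromosome 3, which carries ARP6, held 3 (7.5% against 20.2%). No named members were next to each other. On chromosome 1, AT1G06550, NIH and AT1G06720 lay near each other, with 10 protein-coding genes between the first pair and 4 between the second, in RefSeq's TAIR10.1 gene order. No named member lay within 100 protein-coding genes of ARP6.

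Other genes of the same pathways were taken from lists, and their genotype differences tested with limma on 18 arrays. The lists were chosen with earlier results of these data known. Their counts and p-values are thus a description and no independent evidence for a pathway. The share of all tested probe sets that passed as higher in arp6-10 was 17.6% at 12 °C, 5.17% at 2 h and 0.477% at 24 h, and as lower 14.7%, 4.08% and 0.452%. In the list of SWR1, H2A.Z and chromatin remodelling genes, 5 of 25 had a probe set, CHR23 among them. Of the other 4, 3 were higher at 12 °C, 2 at 2 h and none at 24 h, with none lower. SWC2, a subunit of SWR1, had a difference of 2.02 at 12 °C (limma adjusted p = 1.52e-05) and 1.20 at 2 h, and CHR17, a remodelling ATPase, 2.00 (limma adjusted p = 7.31e-06) and 0.86. INO80, the ATPase of another remodelling complex, was higher at 12 °C by 1.05. RVB2 had 0.43 and did not pass. At 24 h their differences were 0.48, 0.03, 0.25 and 0.04. With the 16 arrays the 12 °C differences of the 4, in the same order, were 2.00, 1.84, 0.89 and 0.47. The change of these differences between points was not tested. SWC2 was near the floor in Col-0 at 12 °C and 2 h, with means of 4.38 and 4.88.

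For ribosome biogenesis 9 of 17 listed genes were tested, and the counts were near the shares over all probe sets. Of 8 tested genes that are not members, 2 were higher at 12 °C (NOP58B by 2.48 and EBP2 by 1.60), 1 at 2 h (NOP58B by 1.58) and none at 24 h. Medians of the 8 with the 16 arrays were 0.44, 0.53 and -0.08. In the heat shock list, which holds no member, 7 of 19 genes were tested. Of these 7, 1 was higher at 12 °C (HSP23.5 by 1.27), 3 at 2 h and none at 24 h. The 3 were the small heat shock protein genes AT2G29500 (by 1.56), AT1G53540 (by 2.20) and HSP23.5 (by 1.83). In the list of protein folding in the endoplasmic reticulum, only 3 of 14 genes were tested. Of these 3, 2 were higher at 12 °C and at 2 h and none at 24 h. Those 2 were CRT1b, the lectin chaperone calreticulin (0.80 and 1.14), and ATERDJ3B, a co-chaperone (1.71 and 1.12). Only 2 of 11 salicylic acid defence genes and 1 of 9 flowering time genes were tested, and none of them passed at any point. No phosphate starvation gene had a named probe set. The untested genes of each list stay unknown. Of the marker lists, PRK (shoot, by 0.72) and NAI2 (root, by 1.00) were higher at 12 °C, as 1 of 4 and 1 of 2, and none passed later. No gene of these lists passed as lower in arp6-10. With the 16 arrays the 12 °C differences were 2.45 for NOP58B, 1.98 for EBP2, 0.99 for HSP23.5 and 0.89 for CRT1b. They were 1.53 for ATERDJ3B, 0.51 for PRK and 0.82 for NAI2.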

How the data were processed

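The authors deposited a linear intensity for each probe set of 18 arrays, using GCOS, as the submitters' processing notes name it (version not given in the sources used here). The 64 control probe sets were removed. Intensities were turned into log2(value + 16) and quantile normalized (limma 3.58.1, R 4.3.3), and those whose mean lay below the 30th percentile were left untested. limma's lmFit and eBayes with a trend fitted 6 group means (12 residual degrees of freedom). Tests were two-sided. The number of arrays limits the precision.

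Groups are those of the labels. The fitting code was tested on simulated data. Members and lists were chosen with earlier results of these data known, and the role groups after the members were seen. Named by rule were the largest and the borderline differences, list members, the largest temperature changes, the widest and narrowest ranges, members low on the unused arrays and neighbours; other named members were added to account for all. Names come from the platform annotation with symbols of RefSeq's TAIR10.1 table. Promoter motifs and sequences were not analysed here. Alternatives were deposited values, pseudocounts of 1 and 64, no filter, 16 arrays, 2 groups alone, a replicate block and leaving out each array.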

Additional observations from a re-analysis of the deposited data

Results flagged for a closer look

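In each arp6-10 group of 4 arrays, the values of 25 members were searched for an array far from the other 3. Of 75 groups, 7 held one, and 6 of the 7 lay on the 2 arrays that the rule did not use. Chance alone flags about 1 in 20 groups, and since some of these genes were named for low values on those arrays or for large temperature changes, the count is a description. On the array labelled arp6-10 12 °C replicate 3, AT1G65370 read 10.17 (others 8.90 to 9.11), GSTU25 read 7.47 (others 11.73 to 12.44) and AT2G04050 read 5.47 (others 8.43 to 8.82). On the array labelled arp6-10 24 h replicate 2, AT5G47600 read 6.97 (others 10.07 to 10.27), AT1G80130 read 9.71 (others 6.81 to 7.26) and AT5G16030 read 7.33 (others 10.07 to 10.26). The seventh was AT2G21640 on arp6-10 2 h replicate 2, at 9.60 (others 10.04 to 10.11).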

How the results depend on the processing

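The set had 67 members, and 98 on the values as deposited (66 of the 67 among them), 81 with a pseudocount of 1, 70 with all 18 arrays (51 of the 67) and 46 with a mean of at least 7. It fell to 31 with a pseudocount of 64 and to 33 with a difference of at least 1. Leaving out 1 array gave 55 to 146, the most without Col-0 24 h replicate 1. This check and the alternatives for the 2 unused arrays were chosen after seeing the data. On those arrays the number above all Col-0 arrays was 56 to 58 and 60 in the alternatives run, 1 of which has 68 members.

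Counts of members that rose or fell depended on the arrays. Shares over all tested probe sets are given only for the 18 and the 16 arrays. Shifts in the other fits are thus not shown to be particular to the members. In Col-0 at 2 h the 6 that rose became 10 with a pseudocount of 1, 3 with 64, 14 with the 16 arrays and 0 to 9 with 1 array left out. The 1 that fell became 7 with the 16 arrays, 5 with only the 2 groups, 2 with the replicate block and 0 to 3 with 1 array left out. In Col-0 at 24 h the 21 that rose ranged from 5 to 26 with 1 array left out. The 4 that fell became 7 and 1 with pseudocounts of 1 and 64, 1 with no filter, 9 with the 16 arrays, 8 with only the 2 groups and 0 to 8 with 1 array left out. In arp6-10 at 2 h the 1 that rose became 5 with the 16 arrays, 2 with only the 2 groups and 1 to 3 with 1 array left out. The 2 that fell became 1 with no filter, 8 with the 16 arrays and 0 to 6 with 1 array left out. In arp6-10 at 24 h none passed with 18 arrays, 10 rose and 15 fell with the 16, and 0 to 3 passed in each direction with 1 array left out. The cause was not tested.

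Of 16 temperature changes of rule-named genes called with 18 arrays, 3 were called whichever array was left out. With 1 array left out, 5 changes of arp6-10 that were not called with 18 arrays turned sign, though all 5 are called with the 16. AT5G47600 at 2 h ran from -0.23 to 0.77, and at 24 h AT1G65370 ran from -0.01 to 0.41, AT1G80130 from -1.33 to 0.05, AT2G21640 from -0.42 to 0.11 and AT2G19930 from -0.01 to 0.57. Same-numbered arrays correlated from -0.402 to 0.56 in their deviations from the group means. The 2 arrays opposite to their labels entered those means, and Col-0 groups hold only 2 arrays. This check therefore cannot tell whether the numbers paired the samples. With the replicate block 23 members rose and 6 fell in Col-0 at 24 h, 5 rose at 2 h, and in arp6-10 1 rose and 2 fell at 2 h and none at 24 h.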

Other observations

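Of 16 listed genes known for responding to disturbed mitochondria, 8 were tested. Of these, 4 were members: AT2G21640, AT5G09570, AT2G41730 and AT2G04050. This list was written after the members were seen, so the count supports nothing. Of its 4 other genes, the mitochondrial small heat shock protein gene HSP23.5 was higher in arp6-10 by 1.27 at 12 °C (limma adjusted p = 0.0113) and by 1.83 at 2 h (limma adjusted p = 0.00485). The remaining 3 did not pass in limma at any point. These are differences from all 18 arrays, on which the alternative NADH dehydrogenase gene NDB2 had -0.45, 0.85 and 0.83 and the efflux gene AT2G04070 had -0.09, 1.3 and 0.98. With the 16 arrays their 12 °C values turn sign, to 0.09 and 0.23, and NDB2 has 0.30 at 24 h. HSP23.5 has 0.99 at 12 °C with the 16. The member AT2G04050 has 0.02 at 12 °C on the 18 arrays.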
